A study of Pyrus pyrifolia with 6 samples.

Results

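CG-only gains are stretches of the pear genome whose cytosines in CG context were more methylated in the skin of bagged than of unbagged fruit, and which shared no base with a region called in CHG or CHH context (H is A, C or T). They were taken from the authors' deposited list of 53954 regions that differ in methylation between the groups. The members were chosen by the sign of the difference between the 2 group means and by position, as the CG regions on chromosomes with a higher mean in bagged skin and no overlap, both ends included, with any CHG or CHH region of the table. The rule found 514 regions. The table holds 1958 CG regions on the 17 chromosomes, of which 38.4% were higher in bagged skin and 77.1% shared no base with a CHG or CHH region. These 2 shares describe the choice of regions, and nothing is read from them. Regions are written below with the chromosome number and with start and end as the table gives them. The other CG regions were 995 CG-only losses, 237 gains that shared bases with a CHG or CHH region, and 212 such losses. "CG-only" says that no region of another context was called there. The CHG and CHH levels inside the 514 regions are not in the table, so they are not shown to be unaltered.

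The study is on Pyrus pyrifolia 'Cuiguan', a sand pear whose skin turns partly brown and corky (semi-russet). Both groups were fruit of this cultivar from orchard trees 7 years old, and skin was taken at 115 days after full bloom with 3 biological replicates per group. Bagged fruit was covered with single-layer white paper bags at 20 days and with double-layer yellow-white bags at 40 days after full bloom. Unbagged fruit was left uncovered as the control. DNA methylation was read by whole-genome bisulfite sequencing, in which unmethylated cytosines are read as thymine. Each region has 1 mean level per group over all replicates, so no spread between fruit, sequencing depth or test across samples can be given, and intervals below cover counting error only. How many of the 3 samples of a group show a given difference is not known.

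In Arabidopsis, the plant in which the pathways are best known, CG methylation is copied onto the new DNA strand by the methyltransferase MET1 each time a cell divides. CHG methylation is kept by CMT3 together with a histone mark, and CHH methylation is set anew by CMT2 or by small RNAs that guide DRM2. DNA glycosylases of the ROS1 and DME family remove methylcytosine in any of these contexts. Transposons usually carry methylation in every context, whereas the bodies of many active genes carry it in CG context alone. Genes and transposons at the positions below were not analysed here, so which kind of sequence the regions belong to is not known.

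The CG-only gains were short, and their methylation lay at every level from nearly none to nearly full. They covered 51.8 kb in all, with a median length of 88 bp (quartiles 68 and 114, range 51 to 364) and a median of 11 CG cytosines (quartiles 7 and 17, range 4 to 60). In unbagged skin the authors' mean level had a median of 27.6% (quartiles 10.7 and 49.0) and ran from 1.99 to 91.2%. In bagged skin the median was 55.0% (30.7 and 75.6), with a range of 5.27 to 96.4%. The difference had a median of 21.6 percentage points (15.2 and 27.1). It is what chose the regions, so it is given as a description. A difference of at least 20 points, which 66.2% of all CG regions on chromosomes had in either direction, was present in 285 of the 514 (55.4%), and a difference of at least 40 points in 24 (4.67%). Differences of 40 to 50 points made up 3.31% of the members and 3.02% of the CG-only losses. They made up 4.22% of the gains and 8.02% of the losses that shared bases. For 50 points or more the shares were 1.36, 0.90, 3.80 and 1.89%, in that order.

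Most members were partly methylated already in unbagged skin. Of the 204 regions under 20% in unbagged skin, 75 stayed under 20%, 114 reached 20 to 50% and 15 reached 50 to 80% in bagged skin. None of them reached 80%. Of the 186 that began between 20 and 50%, 144 ended between 50 and 80% and 8 at 80% or more. The 110 that began between 50 and 80% mostly ended at 80% or more, 81 in number. In all, 291 regions (56.6%) were methylated at 50% or more in bagged skin and 14 were still under 10%.

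**Figure D1:**
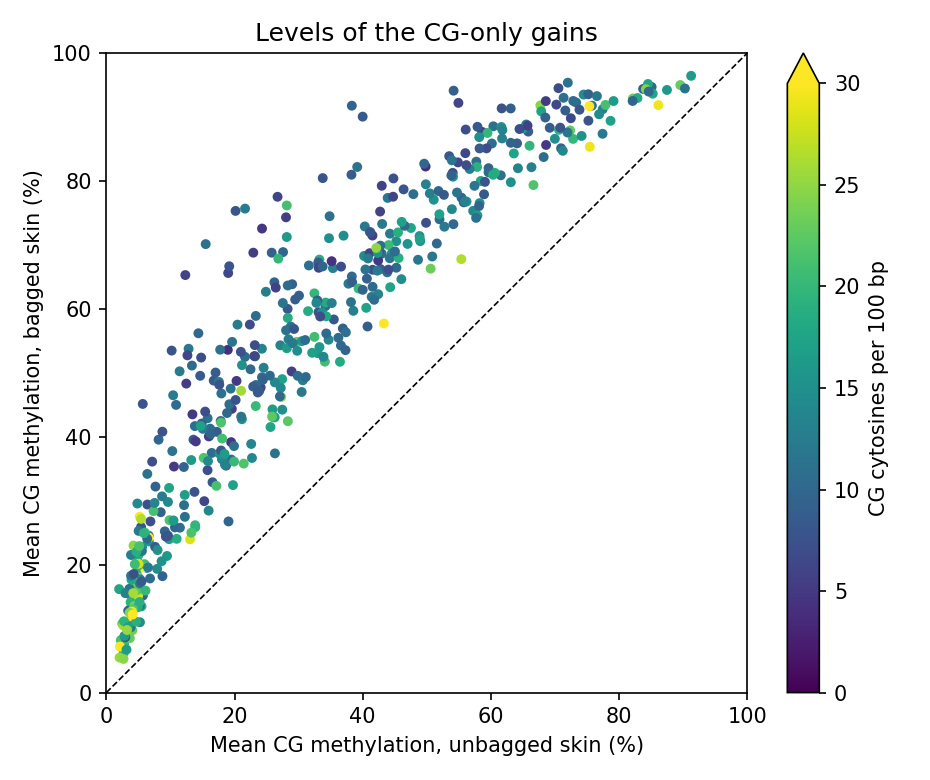
Mean CG methylation of each of the 514 CG-only gains in unbagged (x axis) and bagged skin (y axis), in percent, 1 point per region, coloured by CG cytosines per 100 bp; the dashed line marks equal levels. All points lie above the line by the rule, and the 123 regions under 10% in unbagged skin stay under 50% in bagged skin.

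Over all differences, the members that were nearly unmethylated in unbagged skin had a higher CG density than the other members. The level was under 10% in 123 of the 514 (23.9%) and under 5% in 68. The median of these 123 was 4.83% without and 17.7% with a bag (quartiles 13.1 and 23.0, highest 45.1%), a median gain of 12.6 points and a median ratio of 3.56. They were rich in CG sites, with a median of 17.9 CG cytosines per 100 bp (quartiles 12.1 and 22.0). Gains that began at 10 to 25%, 25 to 50% and 50% or more had medians of 10.5, 11.5 and 11.7 per 100 bp. The nearly unmethylated regions were no longer than the rest (median 82 bp, beside 96, 90 and 86 bp), so they held more sites in about the same length. With a difference of at least 20 points, the gains under 10% had a median of only 12.1 per 100 bp (order-statistic interval 7.965 to 14.3). That is near the medians of the other levels over all differences, whose values at this limit were not computed.

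Other CG regions with a low level had lower median CG densities, again over all differences. The 134 CG-only losses that ended under 10% in bagged skin had a median of 11.3 CG cytosines per 100 bp (quartiles 9.12 and 14.99), close to the 10.3 to 11.8 of losses at higher levels. The 26 gains that shared bases with a CHG or CHH region and began under 10% had 11.8. Across the 514 CG-only gains, the Spearman correlation between CG density and the lower mean, that of unbagged skin, was -0.22. Across the 995 CG-only losses, that between density and the lower mean, there that of bagged skin, was 0.099. In both directions denser regions had smaller differences: the correlation of density with the signed difference was -0.51 for the gains and 0.40 for the losses, whose differences are negative. Regions are not independent replicates and share the same libraries. A region with more cytosines can be called on a smaller difference, and the part of this in the pattern was not tested.

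**Figure D2:**
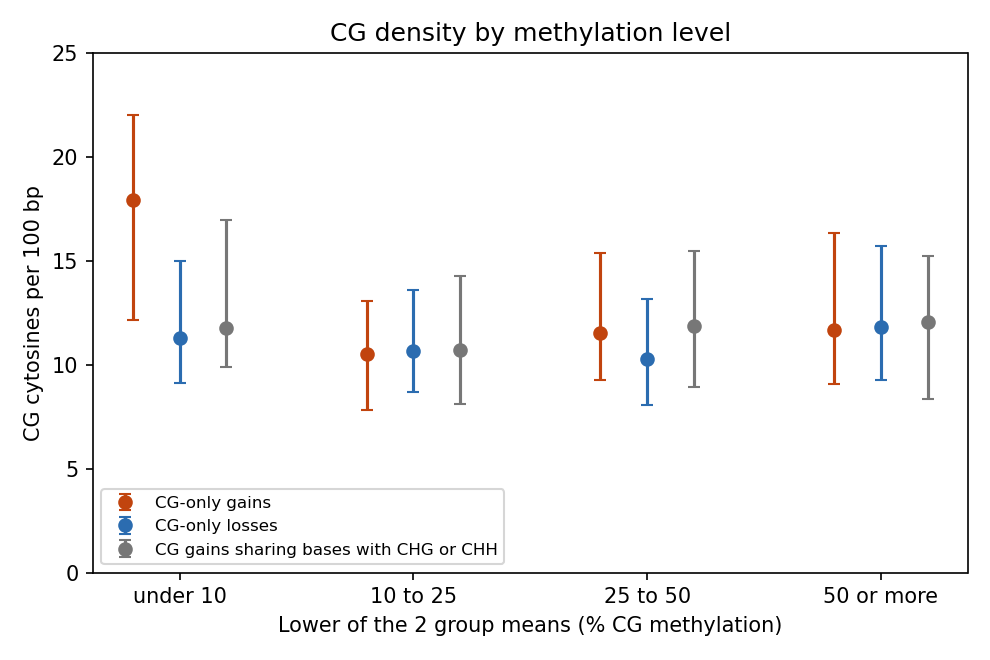
CG cytosines per 100 bp (y axis) by the lower of the 2 group means in percent (x axis) for CG-only gains, CG-only losses and CG gains that share bases with a CHG or CHH region; points are medians and bars run from the lower to the upper quartile. Over all differences, the CG-only gains under 10% stand at 17.9, and the other sets under 10% at 11.3 and 11.8. With a difference of at least 20 points, the CG-only gains under 10% had a median of 12.1 (not drawn).

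Seen from the other side, the direction of CG-only regions went with their CG density, which the rule did not use. Gains made up 34.1% of all 1509 CG-only regions (95% exact Clopper-Pearson interval 31.7 to 36.5). The share was 29.2% (25.3 to 33.3) of 521 regions with 5 to 10 CG cytosines per 100 bp and 30.7% (27.0 to 34.7) of 579 with 10 to 15. It was 39.4% (33.4 to 45.8) of 251 regions with 15 to 20, and 58.1% (49.3 to 66.5) of 136 with 20 or more. In the last class 79 regions were gains and 57 losses. Those 79 gains had median levels of 6.02% without and 24.2% with a bag. The 57 losses in that class lay at the opposite end, with medians of 80.6 and 57.1%. Gains were 41.0% of the regions of that density whose difference was 20 points or more (25.6 to 57.9). The share of gains was likewise higher in the denser classes of CG regions that shared bases with a CHG or CHH region, apart from the sparsest class (7 of 12). It was 46.4% (39.0 to 54.0) of 181 regions at 5 to 10 per 100 bp, 53.5% (45.4 to 61.6) of 155 at 10 to 15, 59.5% (47.4 to 70.7) of 74 at 15 to 20 and 70.4% (49.8 to 86.2) of 27 at 20 or more. The relation is thus not given as particular to CG-only regions.

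Level and density together placed the excess of gains. Among CG-only regions whose lower mean was under 10%, 79 of 113 with at least 15 CG cytosines per 100 bp were gains (69.9%, 60.6 to 78.2), and 44 of 144 with fewer (30.6%, 23.2 to 38.8). From 10 to 25%, the shares were 34.9% (23.3 to 48.0) of 63 dense and 31.4% (26.1 to 37.0) of 293 less dense regions. From 25 to 50% they were 48.2% (37.3 to 59.3) of 85 and 30.6% (25.9 to 35.6) of 366. At 50% or more they were 28.6% (20.9 to 37.3) of 126 and 27.6% (22.8 to 32.8) of 319, 2 shares that lie close together. Length separated the directions less, with shares of gains between 32.0 and 35.2% in its 4 classes, from regions under 75 bp to those of 150 bp or more. The number of cytosines also went with direction. Gains were 51.4% (43.8 to 58.9) of 179 CG-only regions with 21 or more cytosines, and 29.4 to 35.4% in the classes with fewer. The parts of density and of number of cytosines were not tested apart. The level bins and density limits were chosen after the values were seen.

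**Figure D3:**
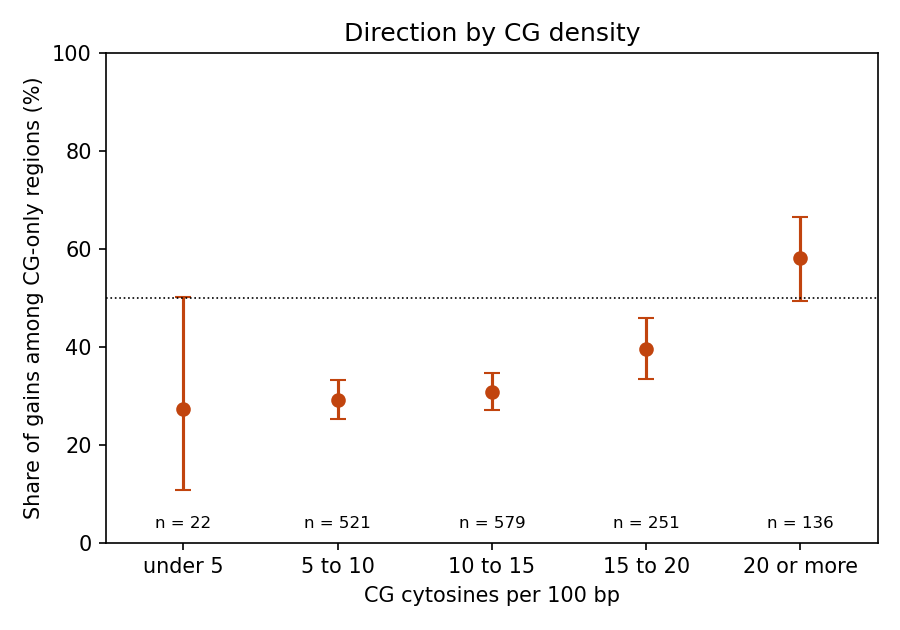
Share of gains in percent (y axis) among CG-only regions by CG cytosines per 100 bp (x axis), with 95% exact binomial intervals and the number of regions; the dotted line marks an equal split. The share lies between 27.3 and 39.4% in the 4 lower classes and at 58.1% in the highest.

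The largest gains with at least 10 cytosines on each chromosome were partly methylated in unbagged skin. Taking the largest difference on each chromosome, the 17 regions began between 13.4 and 49.6% and ended between 41.7 and 91.8%, with differences of 26.8 to 54.6 points. None began under 10%. Of the 17, 15 reached at least 50% in bagged skin, 13 had fewer than 15 CG cytosines per 100 bp, and 12 rested on 12 or fewer cytosines. The 17 were drawn from the 296 members with at least 10 cytosines, whereas the shares given next are over all 514. Among all 514 members, 56.6% reached at least 50%, 23.9% began under 10%, and the median number of cytosines was 11. By density, 29.6% of all members had 5 to 10 per 100 bp, 34.6% had 10 to 15, 19.3% had 15 to 20 and 15.4% had 20 or more. The 17 were picked by the difference, with which density correlated at -0.51, so nothing is read from these counts. No error is given for a single region, since its depth is not known.

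Among these leaders, the region chr5:25831619-25831771 held 17 CG cytosines and went from 15.5% in unbagged to 70.1% in bagged skin. Chromosome 16 had its largest gain at chr16:20729007-20729094, where 11 cytosines stood at 21.6 and 75.7%. At chr7:16066805-16066909, 10 cytosines went from 38.3 to 91.8%, which is nearly full methylation. The region chr15:40564626-40564720 combined a difference of 48.0 points, from 28.1 to 76.2%, with 20 cytosines in 95 bp. It is the densest of the 17, at 21.1 CG cytosines per 100 bp. Differences of at least 40 points were also found at chr17:26258989-26259116 (19.2 to 66.7%), chr9:8450006-8450109 (39.1 to 82.2%) and chr12:1685055-1685109 (26.8 to 67.8%).

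The other 10 chromosomes had smaller leading differences. The region chr3:8134049-8134156 went from 26.2 to 64.1%, and chr8:11222837-11222942 from 13.4 to 51.1%. The stretch chr4:11162577-11162721 stood at 22.4 and 57.5%, and chr14:6920513-6920674 at 49.6 and 82.7%. The leading gain of chromosome 13, chr13:24297524-24297605, began at 17.6% and ended at 48.6%. It and that of chromosome 1 are the 2 of the 17 that stayed under 50% in bagged skin. The region chr6:22641585-22641644 showed 28.3 and 58.6%, and chr2:4694583-4694798 showed 41.5 and 71.5%. The corresponding levels were 31.5 and 59.6% at chr10:4444133-4444218, 13.8 and 41.7% at chr1:5116240-5116378, and 28.4 and 55.2% at chr11:28362843-28362936. The last has the smallest leading difference, 26.8 points.

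The authors' area statistic, a score of their region caller that is not explained in the file, ranked other regions first. Its Spearman correlation with the number of cytosines was 0.96 across the 514 regions, so its leaders are the regions with many cytosines. The largest score belonged to chr3:1614286-1614525, with 46 cytosines at 57.8% in unbagged and 82.2% in bagged skin. Next was chr6:21361904-21362191, whose 60 cytosines, the most of any member, had 5.97 and 20.1%. The region chr7:11578551-11578826 followed with 56 cytosines at 44.0 and 70.0%, and chr3:4254592-4254881 with 38 cytosines at 49.8 and 79.5%. The fifth, chr10:31152554-31152760, had 49 cytosines at 4.41 and 13.6%. Thus 2 of the 5 were nearly unmethylated in unbagged skin, and the other 3 partly methylated.

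The longest members were chr12:15464615-15464978 (364 bp, 55 cytosines, 4.52 to 17.9%), chr2:16879688-16880047 (360 bp, 36 cytosines, 45.2 to 66.4%) and chr11:29443913-29444257 (345 bp, 48 cytosines, 53.9 to 75.6%). No member was longer. Among members with at least 10 cytosines, the lowest unbagged levels were found at chr6:21852060-21852126 (2.06 to 5.47%), chr12:1938717-1938791 (2.12 to 7.19%) and chr9:3152816-3152905 (2.26 to 8.20%). These 3 regions had 25.4, 32.0 and 21.1 CG cytosines per 100 bp. With the same minimum of cytosines, the highest unbagged levels were found at chr17:18864281-18864378 (90.3 to 94.5%), chr8:15931215-15931306 (89.6 to 94.99%) and chr14:17347726-17347819 (87.5 to 94.2%). These 6 regions differed by 3.41 to 6.75 points.

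At the limits of the rule, the smallest gains were 2.59 points at chr11:5387216-5387284 (2.68 to 5.27%), 3.41 points at the chromosome 6 region at 2.06% above, and 3.51 points at chr4:18224058-18224116 (2.71 to 6.22%). Just outside, the smallest CG-only losses were -5.80, -6.10 and -6.25 points, at chr15:23478721-23478781, chr15:39550272-39550331 and chr11:8882369-8882434. The CG gains that shared the fewest bases with a region of another context, and so were left out, shared 4, 8 and 12 bp. They lay at chr4:777296-777364 (29.7 to 55.9%), chr14:20320928-20320979 (12.6 to 40.0%) and chr2:19898583-19898695 (13.1 to 31.4%).

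Regions of the other contexts were then sought around the CG-only gains, with distances from edge to edge. The nearest CHH region lay at a median of 3029 bp (quartiles 1325 and 7175) and the nearest CHG region at a median of 79401 bp (27931 and 187825). Within 5 kb on either side, 39.9% of the members had no CHH gain, 90.1% no CHH loss and 92.6% no CHG gain. The CG-only losses had a nearest CHH region at a median of 2739 bp, and 36.4% of them had no CHH gain within 5 kb. Within the same 5 kb, 97.9% of the members had no CHG loss. Of the CG-only losses, 97.8% had no CHG gain and 94.6% no CHG loss. Most regions of both sets thus had no called CHG region that close. How often CHG regions lie that close to other places on the chromosomes was not computed.

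Where a CHG region was close, it mostly had the direction of the CG region. All 11 members with a CHG region within 200 bp had a CHG gain there (exact interval 71.5 to 100%). Of the 40 members with a CHG region within 2 kb, which include these 11, the nearest was a gain for 30 (exact interval 58.8 to 87.3%). Beyond 2 kb the nearest CHG region was a gain for 53.6% of 474 members (49.0 to 58.2), near the 50.3% of all CHG regions on chromosomes that were higher in bagged skin. For the CG-only losses, the nearest CHG region was a gain in 0 of 17 within 200 bp (0 to 19.5%). It was a gain in 8 of 48 within 2 kb, which include these 17 (16.7%, 7.48 to 30.2), and in 48.8% of 947 beyond. Neighbouring regions come from the same reads and group means, and whether some are parts of a single changed stretch that was called in pieces was not tested.

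The 11 members beside a CHG gain had CG differences of 7.99 to 43.1 points (median 24.6), and the CHG regions next to them 9.17 to 55.8 points (median 23.2). The largest pair was on chromosome 17, where the CG region chr17:14613400-14613467 went from 28.2 to 71.2% and a CHG region 132 bp away gained 55.8 points. The leading gain of chromosome 3 lay 20 bp from a CHG gain of 26.3 points, and that of chromosome 14 lay 183 bp from a CHG gain of 38.4 points. Both were among the 3 leaders of the 17 chromosomes with a CHG region within 2 kb, and each of the 3 neighbours was a gain. At chr7:29888168-29888253, a dense region went from 5.49 to 13.5% beside a CHG gain of 9.17 points. So adjacent CHG gains occurred at large and at small CG gains.

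For CHH neighbours the shares of gains and losses lay near the background. The nearest CHH region was a gain for 454 of the 514 members (88.3%, 85.2 to 91.0) and for 90.8% of the CG-only losses (88.8 to 92.5), beside 90.3% of all CHH regions on chromosomes. Within 200 bp the shares were 22 of 26 (84.6%, 65.1 to 95.6) and 86 of 94 (91.5%, 83.9 to 96.3). CHH regions were nearer to members at higher levels, with a median distance of 2070 bp for those at 50% or more in unbagged skin and 4426 bp for those under 10%. The CG-only losses likewise had a median distance of 2212 bp where the lower mean, that of bagged skin, was 50% or more. It was 3626 bp where that mean was under 10%, so the relation is not given as particular to the members. The Spearman correlation of the unbagged level with this distance was -0.22 across the members and -0.08 across the CG-only losses. These correlations are not like for like, since the unbagged level is the lower mean of a gain and the higher mean of a loss.

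**Figure D4:**
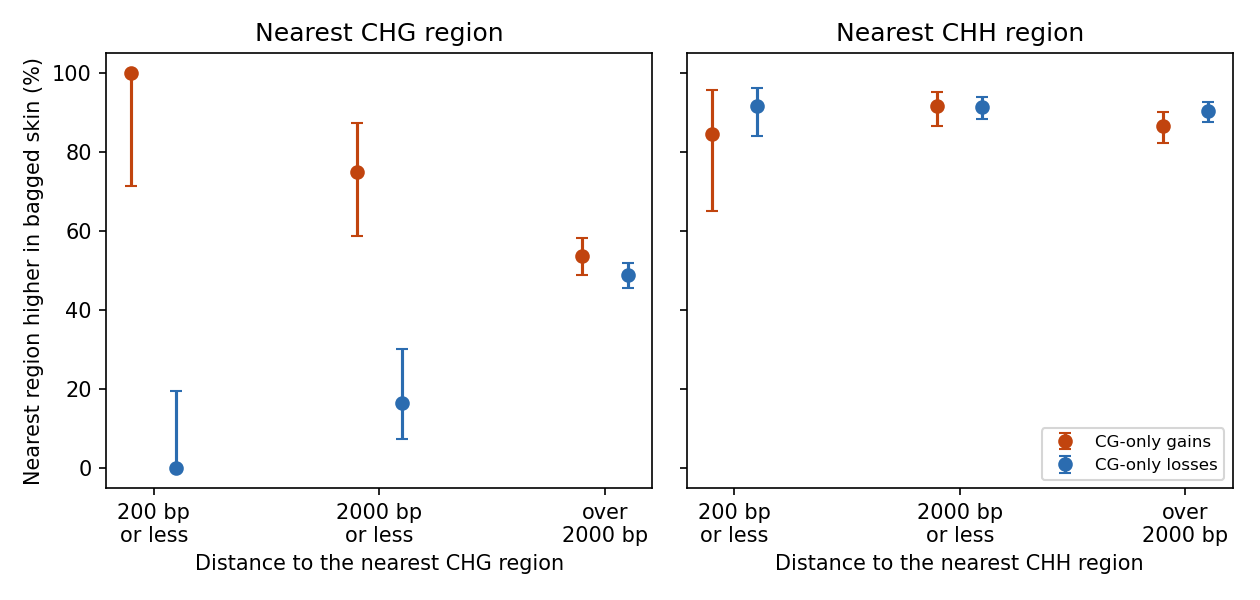
Share in percent (y axis) of CG-only gains and CG-only losses whose nearest CHG region (left) or CHH region (right) was higher in bagged skin, by the distance to it (x axis; the class of 2000 bp or less contains that of 200 bp or less); bars are 95% exact binomial intervals. Nearest CHG regions within 200 bp were gains for 100% of the CG-only gains and 0% of the CG-only losses, while nearest CHH regions were gains for 84.6 to 91.5% in every class.

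The members closest to another context were chr2:19129380-19129475 (13.6 to 39.5%), 3 bp from a CHH gain of 8.64 points, and chr3:11498576-11498668 (50.5 to 78.0%), 14 bp from a CHH loss of -17.6 points. The latter is a place where neighbouring contexts moved in opposite directions. The third was the leading gain of chromosome 3. The farthest members, chr4:21071544-21071597 (5.70 to 15.2%), chr10:29510665-29510757 (4.0 to 12.6%) and chr7:8863745-8863803 (4.32 to 13.4%), had nothing called in CHG or CHH context within 33068, 32563 and 30657 bp. All 3 began under 10%. Of the 23 members with no such region within 20 kb, 11 began under 10%, beside 23.9% of all members.

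The CG-only gains were mostly single. Only 18 of the 514 (3.50%, 2.09 to 5.48) had another member within 10 kb, and the median distance to the next member was 286.7 kb. The more numerous CG-only losses had another loss within 10 kb in 74 of 995 cases (7.44%, 5.89 to 9.25), at a median distance of 140.9 kb. Since a set with more regions lies closer together, these shares are given side by side and not compared. The 18 members formed 9 pairs, and none formed a longer run. All runs tied at 2 members, so the 5 with the shortest gaps are named here, a choice made after their values were seen.

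The closest pair was chr5:1969203-1969334 (40.6 to 60.2%) and, 51 bp on, chr5:1969385-1969444 (36.5 to 51.7%). A nearly unmethylated pair with 22 and 55 cytosines lay 103 bp apart at chr12:15464412-15464512 (4.17 to 13.0%) and at the longest member named above (4.52 to 17.9%). The stretches chr4:17679909-17680041 (19.8 to 32.4%) and chr4:17680167-17680308 (18.0 to 36.5%) were 126 bp apart. In each of these 3 pairs the partners began within a few points of each other. On chromosome 3 the member with the largest area statistic followed, at 248 bp, chr3:1613963-1614038, which went from 21.6 to 52.5%. Regions chr7:1818131-1818339 (53.5 to 83.9%) and chr7:1818844-1818913 (27.5 to 60.9%) were 505 bp apart. The partners in the last 2 pairs began at different levels and gained 24.3 to 33.4 points.

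At 3 places a CG-only gain lay within 1 kb of a CG-only loss. The gain chr4:15114952-15115033 went from 6.40 to 29.4%, while 729 bp before it the loss chr4:15114153-15114223 went from 84.9 to 52.1%. The gain chr16:25076299-25076482, with 33 cytosines, went from 4.95 to 20.4%, and the loss chr16:25075535-25075596, at a distance of 703 bp, from 45.2 to 19.2%. In both places the levels of the 2 neighbours were closer to each other in bagged than in unbagged skin. The gain chr15:678590-678688 went from 74.2 to 87.0%, and 594 bp away the loss chr15:677868-677996 went from 79.98 to 63.7%. There the neighbours were closer in unbagged skin. By choice 1 neighbour rises and the other falls, so whether their levels approach depends largely on where they began. Nothing is read from it. These places were chosen after their values were seen.

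CG-only gains were found on every chromosome, from 14 on chromosome 1 to 47 on chromosome 5, and on all 17 they were fewer than the CG-only losses. Measured against the end of the last region in the table, their density ran from 0.671 per Mb on chromosome 16 to 1.54 per Mb on chromosome 12. Gains made up 21.5% of the CG-only regions on chromosome 1 (14 of 65, 12.3 to 33.5) and 21.7% on chromosome 16 (20 of 92, 13.8 to 31.6). The highest shares were 43.9% on chromosome 5 (47 of 107, 34.3 to 53.8) and 42.2% on chromosome 3 (43 of 102, 32.4 to 52.3). The intervals of chromosomes 1 and 5 do not overlap, but these are the lowest and highest of the 17, picked after the values were seen. The intervals treat regions as independent, and no test was made among the 17. The median difference was similar throughout, from 17.6 points on chromosome 16 to 23.7 points on chromosome 10, and the median unbagged level ran from 20.3% on chromosome 17 to 35.5% on chromosome 5. Members under 10% in unbagged skin occurred on every chromosome, from 2 of 37 on chromosome 15 to 14 of 41 on chromosome 17.

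**Figure D5:**
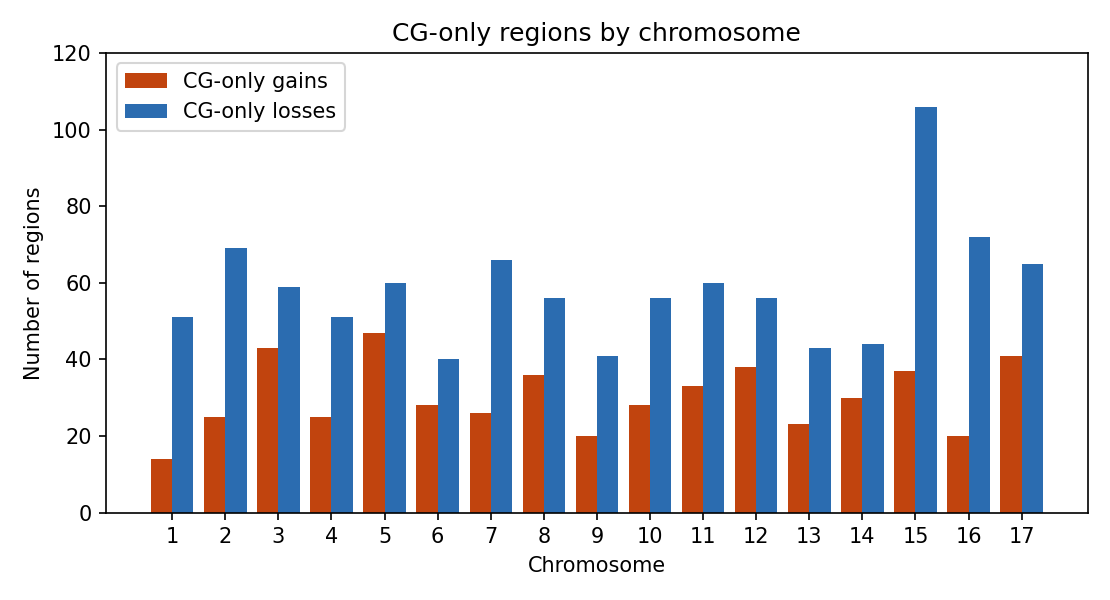
Number of CG-only gains and CG-only losses (y axis) on each of the 17 chromosomes (x axis). Gains number 14 to 47 and are fewer than losses on every chromosome.

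Set beside the 237 CG gains that shared bases with a CHG or CHH region, the CG-only gains were shorter, with a median of 88 bp (order-statistic interval 84 to 92) against 112 bp (102 to 125). A longer region is more likely to share a base, and this cannot be told apart from a difference between the sets. The median levels lay close together, at 27.6% (24.4 to 30.5) and 27.0% (24.9 to 29.3) in unbagged skin and at 55.0% (52.5 to 59.5) and 56.1% (52.9 to 59.2) in bagged skin. The middle of the distribution was wider for the CG-only gains, with unbagged quartiles of 10.7 and 49.0% against 16.2 and 40.8%.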

How the data were processed

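Regions that differ in methylation were taken from the authors' deposited table, which sets 3 bagged against 3 unbagged samples. Per the file headers it gives each region's mean methylation fraction per group, replicates combined, printed here as percent. The difference and the area statistic were read as scores made by the authors. The difference equals bagged minus unbagged in all 53954 regions (within 1e-09). The submitters' processing notes name FastQC and Bismark 0.16.3, a bisulfite read aligner. Per the labels' protocols, an Accel-NGS Methyl-Seq kit gave the libraries. Not given in the sources used here are the genome build, the program that called regions, its limits and the coverage. Positions are as the table prints them. They were read as counted from 1, and whether cytosines of both strands are counted is not stated. All regions had at least 51 bp and 4 cytosines.

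Regions were chosen by the rule in Python 3.11.15 (pandas 2.3.3, scipy 1.17.1), with overlap of at least 1 bp and a distance equal to the difference between facing ends. Overlap and distances were first tested on simulated regions. CG density is CG cytosines per 100 bp of region. Shares have 95% exact binomial intervals and medians order-statistic intervals. No test was made: no values per sample were used, and a 3 against 3 exact permutation test could not give p below 0.1. The members, limits and named regions were chosen with earlier results of these data known. Named were, per chromosome, the largest difference with at least 10 cytosines, then the 5 largest area statistics, the 3 longest and the 3 with most cytosines, extremes of level and of distance, regions at the rule's limits, and runs of neighbours within 10 kb.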

Additional observations from a re-analysis of the deposited data

How the results depend on the processing

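Alternatives were a minimum difference, a minimum of cytosines, a gap of 200 bp to other contexts, the upper part by area statistic, scaffolds included and each chromosome left out in turn. The results on CG density were added after seeing the data. Of 63 alternative values, 49 stayed within the main interval (a factor of 1.5 for the number of regions) and 14 moved. With a difference of at least 20 points there were 285 CG-only gains with a median difference of 26.4 points and levels of 33.2% unbagged and 64.7% bagged. The share of gains among CG-only regions was then 29.8%, among those with at least 20 cytosines per 100 bp 41.0%, and the median density of gains under 10% was 12.1. With at least 10 cytosines there were 296 gains, with a median difference of 19.4 points, a bagged level of 50.4% and a density under 10% of 19.9. In the upper part by area statistic there were 257, with 20.1 points and a density of 21.4. The smaller numbers follow from the stricter limits, and so does the larger median difference at 20 points. The cause of the other shifts was not tested. Gains thus outnumbered losses among dense regions over all differences, but not among differences of 20 points or more. The higher density of gains under 10% is likewise given over all differences only. No paired analysis was possible because the table holds group means only, and for the same reason no replicate could be left out. The depth behind each level is unknown.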

Other observations

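Regions on unplaced scaffolds were outside the rule. There, 61 CG regions shared no base with a CHG or CHH region, and 35 of them, on 28 scaffolds, were higher in bagged skin (57.4%, 95% exact binomial interval 44.1 to 70.0). These 35 had a median level of 19.0% in unbagged skin (quartiles 9.95 and 50.99) and 62.0% in bagged skin (34.0 and 79.9). Their median difference was 22.1 points (15.5 and 32.0) and their median CG density 11.5 cytosines per 100 bp. In unbagged skin 9 of the 35 were under 10%.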
